A study of Saccharomyces cerevisiae with 4 samples.

Results

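The 10 genes described here, SUL1, SUL2, MET3, MET14, MET16, MET10, MET17, MET6, SAM1 and SAM2, carry sulfate from the medium into methionine and S-adenosylmethionine in the budding yeast Saccharomyces cerevisiae. Each was taken through the array probe set annotated to that gene alone. All 10 had exactly 1 such probe set, among 5656 genes that had at least 1. Their signals were followed over 4 arrays of a study of NAB3, whose product binds RNA and, in a complex with Nrd1, ends transcription of short and non-coding RNAs. The question of that study was how expression differs after 2 hours without Nab3 function.

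The 4 groups were nab3-11, a temperature-sensitive NAB3 mutant strain, and a wild type control strain, each at 37 °C and at 25 °C, all grown in YPD, a rich medium, and held for 2 hours at the stated temperature. The allele and any other difference between the strains cannot be told apart, as no source used here gives the strain backgrounds. Each group was 1 RNA sample on 1 array, so no value has a replicate, a standard error or a p-value, and the number of arrays limits the precision. The titles and strain entries of both wild type arrays name wild type, whereas their free-text descriptions name nab3-11 at 25 °C. The titles were followed, and the comparison of nab3-11 at 37 °C with nab3-11 at 25 °C is the comparison that uses neither wild type array.

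Values are probe-set signals in array units, scaled so that each array had the same trimmed mean of 150. Signals below a floor of 21.8, the 40th percentile over arrays, were raised to it before log2 differences were taken. A gene counted as measured in a comparison when at least 1 of its signals there lay above the floor, and it was called higher or lower at 2-fold, a log2 difference of 1. Between 56.5% and 64.4% of probe sets lay above the floor on each array. NAB3 itself had signals of 81.0 at 37 °C and 72.1 at 25 °C in nab3-11 and of 66.7 and 66.2 in the control, and since the allele is no deletion this checks no label. NRD1, a known target of early termination by Nrd1 and Nab3, had 716 and 291 in nab3-11 and 88.8 and 125 in the control, higher in nab3-11 at both temperatures. URA3, a marker often deleted or inserted in laboratory strains, had 48.2 and 81.4 in nab3-11 and 97.7 and 96.4 in the control. In every pair of signals below, the 37 °C array comes first.

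Yeast takes up sulfate through the permeases Sul1 and Sul2, activates it with ATP, reduces it to sulfide, and joins the sulfide to a carbon chain to make homocysteine. Homocysteine is methylated to methionine, which S-adenosylmethionine synthetases turn into the main methyl donor of the cell. The pathway genes are known to be switched on by Met4 together with Cbf1, Met28, Met31 and Met32, and switched off through the ubiquitin ligase subunit Met30 when methionine or cysteine is plentiful, as it is in rich medium.

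The permease gene SUL2, on chromosome XII, had the largest difference between the strains at 37 °C among the 10 genes. In nab3-11 its signal was 114 at 37 °C and 30.6 at 25 °C, and in the control it was 24.6 and 21.9. The nab3-11 array at 37 °C was high and the other 3 sat at or a little above the floor. SUL2 was 4.62-fold higher in nab3-11 than in wild type at 37 °C, and it was 3.72-fold higher in nab3-11 at 37 °C than in nab3-11 at 25 °C, a value that rests on neither wild type array. The wild type temperature difference was 0.17 on the log2 scale with this scaling and -0.28 with scaling to a common median. Because the comparison arrays lay so near the floor, these folds depend on where it is set: with the floor at the 55th percentile the log2 difference between the strains at 37 °C was 1.37 in place of 2.21.

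SUL1, the second permease gene, on chromosome II, was at or below the limit of measurement. In nab3-11 its signal was 23.7 at 37 °C and 8.99 at 25 °C, and in the control it was 8.09 and 12.8, so 1 of 4 arrays passed the floor. It was at least 1.09-fold higher in nab3-11 than in wild type at 37 °C, and no difference was taken in the comparisons where both signals lay below the floor. With the floor lowered to the 25th percentile, a signal of 9.49, the bound became 1.32 on the log2 scale, past 2-fold. The array that was high for SUL2 was also the highest for SUL1.

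The genes of sulfate activation and reduction differed less and not in the same way. MET3, which encodes the ATP sulfurylase that makes the first activated form of sulfate, lies on chromosome X. In nab3-11 it had signals of 127 and 81.4, and in the control 112 and 40.8. The wild type array at 25 °C was the low one: MET3 was 2.75-fold higher at 37 °C than at 25 °C in wild type and 1.56-fold higher in nab3-11. The strains differed by 1.14-fold at 37 °C. At 25 °C the difference was 0.998 on the log2 scale, just under the 2-fold threshold.

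MET14, the adenylylsulfate kinase gene that acts on the product of Met3, lies on chromosome XI. In nab3-11 MET14 was lower at 37 °C than at 25 °C, unlike MET3, and in wild type both were higher with this scaling. The MET14 signals were 79.9 and 107 in nab3-11 and 135 and 109 in the control. The arrays at 25 °C were nearly equal, while at 37 °C nab3-11 was 1.68-fold lower than wild type, short of the threshold. MET16, the gene of the reductase that makes sulfite, on chromosome XVI, had 35.4 and 32.4 in nab3-11 and 35.4 and 39.5 in the control. These span 1.22-fold between the highest and the lowest array, and the strains at 37 °C were equal to 3 digits.

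MET10 encodes a subunit of sulfite reductase, which makes sulfide, and lies on chromosome VI. It had signals of 88.4 and 98.6 in nab3-11 and of 62.5 and 67.2 in the control. Both nab3-11 arrays were above both wild type arrays, by 1.41-fold at 37 °C and 1.47-fold at 25 °C, and the temperature differences were 1.11-fold and 1.07-fold in nab3-11 and the control. None of the 4 activation and reduction genes passed 2-fold between the strains at either temperature.

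**Figure D1:**
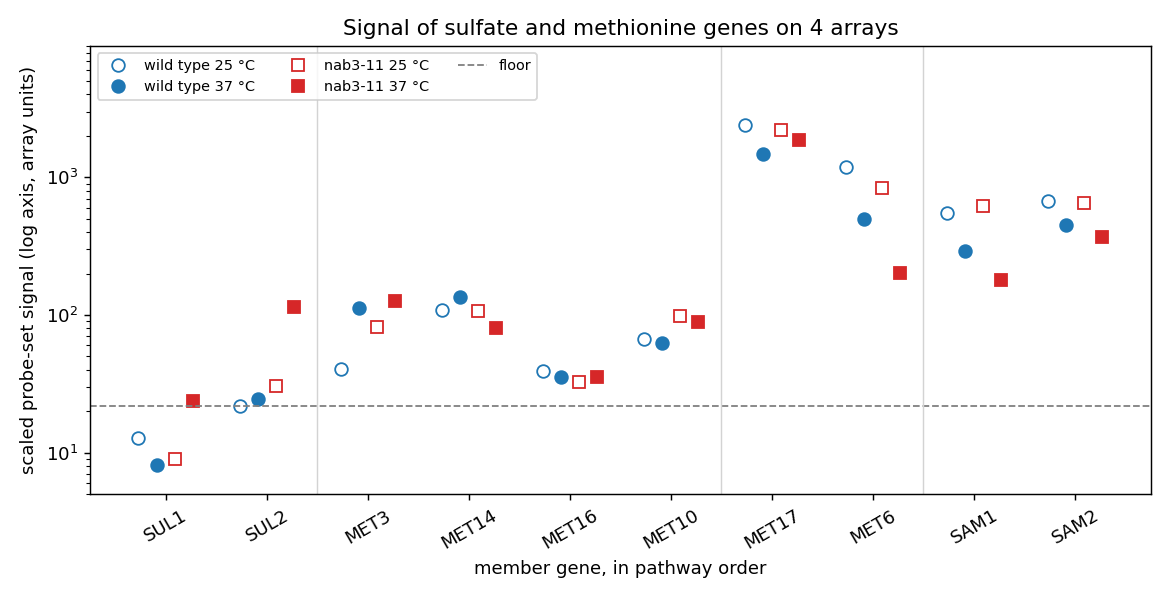
Scaled probe-set signal (log axis, array units) of the 10 genes in pathway order, 1 point for each of the 4 arrays, with the dashed line at the floor of 21.8. SUL2 at 114 in nab3-11 at 37 °C stands above its other 3 points, whereas MET14, MET6, SAM1 and SAM2 have their lowest points on that array.

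MET17 and MET6 stand at the step where sulfide enters organic compounds and at the last step of methionine synthesis. MET17, also on chromosome XII, encodes the sulfhydrylase that joins sulfide to O-acetylhomoserine. Its signal was 1879.8 and 2194 in nab3-11 and 1481 and 2379 in the control, far above the floor in both strains. The arrays at 37 °C were the lower pair, by 1.17-fold in nab3-11 and 1.61-fold in wild type, and with quantile normalization the nab3-11 difference turned to 0.11 on the log2 scale.

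MET6, on chromosome V, encodes the methionine synthase that methylates homocysteine, and it had the widest range of the 10 genes, 5.88-fold between its highest and lowest array. In nab3-11 the signals were 201 at 37 °C and 842 at 25 °C, and in the control they were 500.0 and 1183. Both arrays at 37 °C were below both arrays at 25 °C, and nab3-11 was below wild type at each temperature. MET6 was 4.19-fold lower at 37 °C than at 25 °C in nab3-11, at rank 17 from the lowest of 4630 measured genes, and 2.37-fold lower in wild type, at rank 37 of 4650. Between the strains it was 2.49-fold lower in nab3-11 at 37 °C and 1.40-fold lower at 25 °C. The strain-by-temperature difference, which is the temperature difference in nab3-11 minus that in wild type, was -0.82 on the log2 scale, under 2-fold, and -1.05 with quantile normalization, past it.

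The S-adenosylmethionine synthetase genes were also lower at 37 °C, SAM1 past 2-fold in nab3-11. SAM1, on chromosome XII, had signals of 179.6 and 619.7 in nab3-11 and of 292 and 553 in the control. It was 3.45-fold lower at 37 °C in nab3-11, at rank 26 from the lowest, and 1.90-fold lower in wild type, and at 37 °C it was 1.63-fold lower in nab3-11 than in wild type. SAM2, on chromosome IV, had 371 and 650.1 in nab3-11 and 447 and 676 in the control, which made it 1.75-fold lower at 37 °C in nab3-11 and 1.51-fold lower in wild type. For both genes the arrays at 37 °C lay below the arrays at 25 °C, and nab3-11 at 37 °C was the lowest of the 4.

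SAM1 and SAM2 encode near-identical enzymes, and a further probe set is annotated to both, which kept it out of the gene values. It read 2117 and 3456 in nab3-11 and 2371 and 5062 in the control. This probe set also had its lower signals at 37 °C, by 1.63-fold in nab3-11 and 2.13-fold in wild type. It did not follow SAM1 in the contrast of the strains, however: its strain-by-temperature difference was 0.39 on the log2 scale, against -0.86 for SAM1 and -0.21 for SAM2. The direction of that contrast for S-adenosylmethionine synthetase transcripts therefore depended on the probe set, and whether the gene-specific probe sets also bind the other transcript was not tested.

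Between the strains at 37 °C, 1 of the 10 genes was higher in nab3-11, SUL2, and 1 was lower, MET6. Over all 4770 genes measured there, 4.78% were higher and 3.94% lower, so 1 gene each way among 10 is near the background and no result about the members as a group. The median log2 difference of the 10 genes was 0.06, beside -0.05 over all genes. At 25 °C, 0 of 9 measured members were higher and 0 lower by the 2-fold rule, where 1.17% and 0.537% of all genes were, and their differences ran from -0.49 for MET6 to 0.998 for MET3. No test could be run in either comparison, and at a 1.5-fold threshold 1 of 9 genes at 25 °C, MET3, was called higher, beside 6.05% of all genes.

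**Figure D2:**
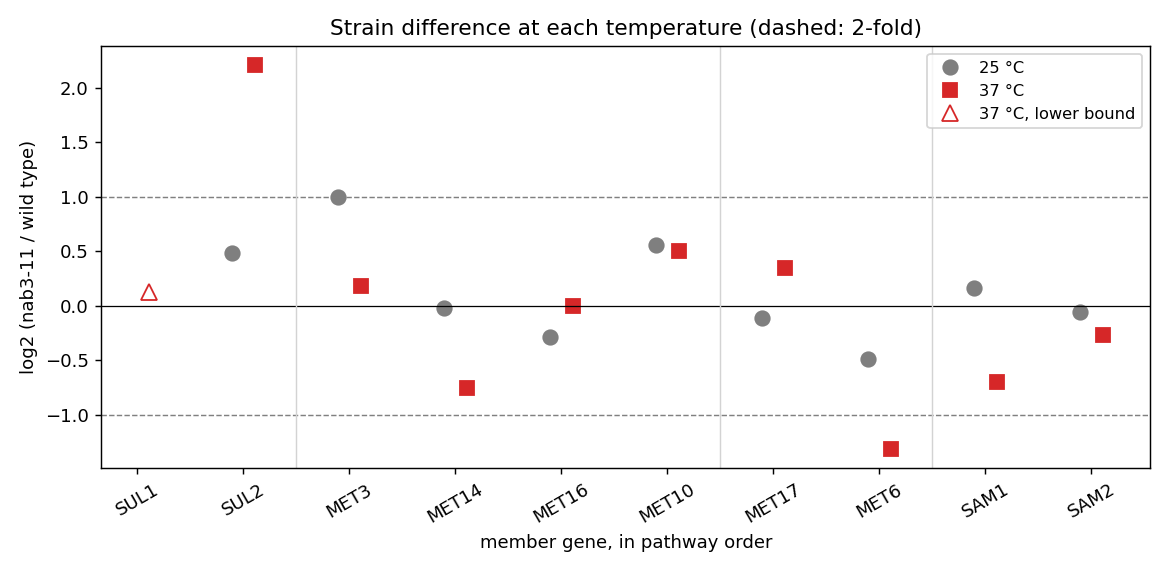
The log2 difference of nab3-11 over wild type for each of the 10 genes at 25 °C (circles) and 37 °C (squares), 1 array per group, with dashed lines at 2-fold and an open triangle for the lower bound of SUL1. SUL2 at 2.21 and MET6 at -1.31 are the points beyond the dashed lines, and MET3 at 25 °C lies at 0.998.

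The shift from 25 °C to 37 °C can be read in each strain from arrays of its own. In nab3-11, 1 of 10 genes was higher at 37 °C than at 25 °C, SUL2, and 2 were lower, MET6 and SAM1, beside 15.7% higher and 4.06% lower among 4630 genes. In the control strain, 1 of 9 measured genes was higher, MET3, and 1 was lower, MET6, beside 11.1% higher and 1.44% lower among 4650 genes. MET6 was thus lower in both strains. The median of the members was -0.19 in nab3-11 and -0.16 in wild type, beside 0.21 and 0.29 over all genes. MET17, MET6, SAM1 and SAM2, from sulfide incorporation onward, were below zero in both strains, except MET17 in nab3-11 with quantile normalization. The upstream genes lay on both sides of zero, with MET10 also below it in both strains, at -0.16 in nab3-11 and -0.10 in wild type. Over all genes 1746 of 4630 lay below zero in nab3-11 and 1336 of 4650 in wild type.

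These counts move with the scale. With scaling to a common median, the median of all genes became -0.26 in nab3-11 and -0.19 in wild type. With that scaling MET17, MET6, SAM1 and SAM2 were all called lower in wild type, MET3 was no longer called there at 0.95, and MET6, SAM1 and SAM2 were called lower in nab3-11. Over all genes 8.27% were then lower in wild type and 15.1% in nab3-11, more than with the main scaling. MET6, SAM1 and SUL2 kept their calls in nab3-11 under both other scalings. A smaller number of cells with a transcript and less of it per cell cannot be told apart in a culture.

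**Figure D3:**
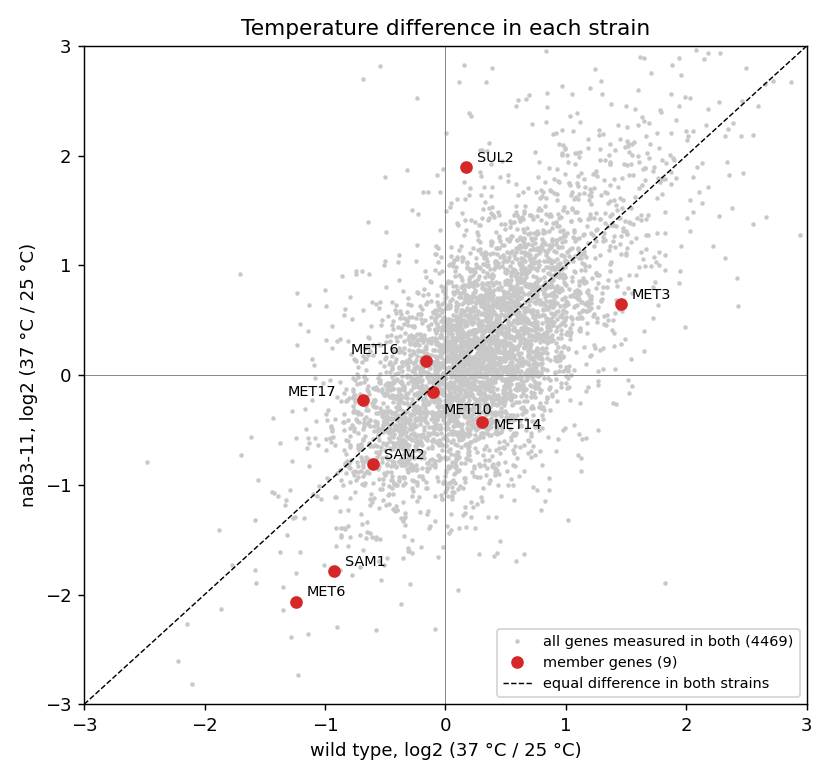
Temperature difference of each gene in wild type (x axis) against nab3-11 (y axis), both as log2 of the signal at 37 °C over that at 25 °C, for 4469 genes measured in both strains (grey, 29 of them beyond the axes) and 9 members (red), with a dashed line of equal difference. SUL2 lies far above the line at 0.17 and 1.89, MET3, MET14, MET6 and SAM1 lie below it, and MET10 lies close to it.

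In the strain-by-temperature difference, SUL2 was the 1 member called higher, at 1.73, and 0 of 10 were called lower, where 4.47% and 5.45% of 4811 genes were. The members just inside 2-fold on the low side were SAM1 at -0.86, MET6 at -0.82, MET3 at -0.81 and MET14 at -0.73. The values for MET3 and MET6 have unlike sources. For MET3 the signals at 37 °C were close in both strains and those at 25 °C differed, while for MET6 the gap between the strains was wider at 37 °C.

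Of 18 other enzyme genes of sulfate reduction and of methionine and cysteine synthesis, 0 were higher and 1 was lower in nab3-11 than in wild type at 37 °C, with a median of -0.06. Over all genes 4.78% were higher and 3.94% lower there, with a median of -0.05. The lower gene among the 18 was CYS4, which encodes cystathionine beta-synthase, the enzyme that takes homocysteine towards cysteine. CYS4 had signals of 419 and 1189.7 in nab3-11 and of 1017 and 1230.2 in the control, so 1 array was low and 3 were close together. In nab3-11, 3 of the 18 were lower at 37 °C than at 25 °C, beside 4.06% of all genes. They were CYS4 at -1.51, SHM2, a serine hydroxymethyltransferase gene, at -1.13, and HOM3, the aspartate kinase gene, at -1.08. STR3, which encodes an enzyme that returns cysteine sulfur to homocysteine, was the 1 higher gene, at 1.52, where 15.7% of all genes were higher. STR3 had 127 and 44.4 in nab3-11 and 68.9 and 40.2 in the control. In wild type 1 of the 18 was lower, SHM2 at -1.03, and 0 were higher, beside 1.44% lower and 11.1% higher over all genes. With scaling to a common median the count was 7 lower and 0 higher in nab3-11, STR3 then being at 0.999, and 6 lower and 0 higher in wild type, beside 15.1% and 8.27% of all genes lower.

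The known regulators gave little. MET28 and MET32, cofactors of the activator Met4, lay below the floor on all 4 arrays, so 6 of 8 regulators were measured. Between the strains at 37 °C 0 of 6 passed 2-fold either way, where 4.78% of all genes were higher and 3.94% lower. MET4 itself differed by 0.05 on the log2 scale. In nab3-11, MET30 and MET31, the latter a DNA-binding partner of Met4, were both at 1.04 for 37 °C over 25 °C, where 15.7% of all genes were higher. Neither was called with scaling to a common median, where both were at 0.52, or with quantile normalization, where both were at 0.53. GCN4, the activator of amino acid synthesis genes, whose output is set mainly by translation, differed by -0.16 in nab3-11 and -0.21 in wild type.

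Of 14 genes for uptake and salvage of organic sulfur, 12 were measured between the strains at 37 °C, and 1 was lower and 1 higher. Over all genes 3.94% were lower and 4.78% higher, and 1 each way among 12 is no result about the list. SAM3, the S-adenosylmethionine permease gene, had signals of 105 and 400.3 in nab3-11 and of 265 and 674 in the control. This is the order of the arrays that MET6 had, with log2 differences of -1.34 between the strains at 37 °C, -1.93 for temperature in nab3-11 and -1.35 in wild type. BDS1, an alkyl sulfatase gene, was at least 2.02-fold higher, with 44.1 against a signal of 20.4 below the floor. It was not called with scaling to a common median, at 0.74. MUP1, the high-affinity methionine permease gene, differed by -0.02 between the strains at 37 °C.

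Among 6 genes for thioredoxin, which feeds electrons to Met16, and for glutathione, 0 were called between the strains at 37 °C. Over all genes 4.78% were higher and 3.94% lower there. In nab3-11, 1 of the 6 was lower at 37 °C than at 25 °C and 0 were higher, beside 4.06% and 15.7% of all genes. It was GSH1, the gene of the first enzyme of glutathione synthesis, at -1.60. GSH1 had 26.3, near the floor, and 79.6 in nab3-11 and 44.9 and 55.6 in the control. With scaling to a common median 3 of 6 were lower in nab3-11, beside 15.1% of all genes. The thioredoxin genes TRX1 and TRX2 differed by -0.18 and 0.10 between the strains at 37 °C.

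The temperature differences were set beside those of 37 genes for other amino acids, of which 35 had a single-gene probe set. In nab3-11, 15 of 34 measured were lower at 37 °C and 1 was higher, with a median of -0.84, where 4.06% of all genes were lower and 15.7% higher. In wild type 10 of 35 were lower and 0 higher, with a median of -0.66, where 1.44% of all genes were lower and 11.1% higher. With scaling to a common median 25 of 34 were lower in nab3-11, with a median of -1.36, and 23 of 35 in wild type, with a median of -1.16, beside 15.1% and 8.27% of all genes. With quantile normalization 19 of 34 were lower in nab3-11 and 9 of 35 in wild type, beside 8.80% and 2.93% of all genes. With the main scaling the list medians of -0.84 and -0.66 lay below the -0.19 and -0.16 of the members in the same strains. With scaling to a common median the members were at -0.74 and -0.66, beside -1.36 and -1.16 for the list. Between the strains at 37 °C 3 of 34 were lower and 0 higher, with a median of -0.22. Over all genes 3.94% were lower and 4.78% higher there, with a median of -0.05. No test of a difference between the lists was made.

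**Figure D4:**
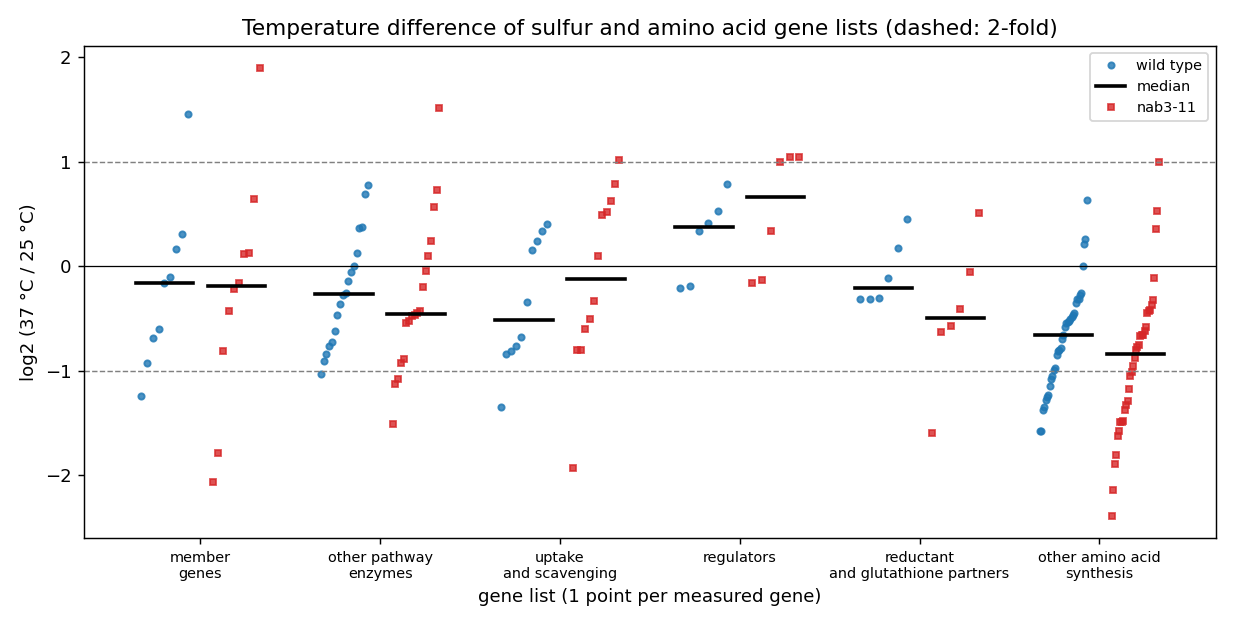
Temperature difference (log2 of 37 °C over 25 °C) in wild type (circles) and nab3-11 (squares) for the measured genes of the 10 members and of 5 related lists, 1 point per gene, with black bars at list medians and dashed lines at 2-fold. The amino acid list has the lowest medians, -0.66 in wild type and -0.84 in nab3-11, and the median of the regulators, 0.38 in wild type, turned to -0.13 there with scaling to a common median.

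The 10 genes did not share a profile over the arrays. Their median profile, each gene centred on its own mean, spanned only 0.29 on the log2 scale, and the members lay at Euclidean distances of 0.27 (SUL1, mostly at the floor) to 1.93 (SUL2) from it. The 5 other genes nearest to that median over the 4 arrays, out of 3782 candidates, were ARP3, STE4, CCT6, HCR1 and TIR3, at distances of 0.041 to 0.065. They lie nearer to it than any member, but they were picked as the closest of 3782 candidates, so this tells nothing about the members. The nearness describes 4 values only.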

How the data were processed

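Total RNA of 4 yeast samples was measured on 1 Affymetrix array each. Per the labels' protocols, hot acid phenol was used for extraction, with 1 round of amplification from an oligo(dT) primer. The authors deposited a linear intensity per probe set, made with GCOS 1.1.1 and MAS5 per the submitters' processing notes. Their trimmed means lay between 150.1 and 150.2, so total RNA per cell is not seen. Detection calls were not used here, and no sequence is shown.

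Arrays were rescaled to a 2% trimmed mean of 150 and floored at 21.8. Of 9335 probe sets, 60 were controls and 6504 had 1 gene, all found by gene ID in the R64 annotation, which was used for names, chromosomes and neighbouring genes only. A further 328 had several genes and 2443 none. The brightest probe set stood for a gene. With 1 array per group no test was run in any of the 5 comparisons. The members, lists, floor and threshold were chosen with earlier results of these data known. Named genes were all members, up to 4 of each related list by size of difference, NAB3, NRD1, and the 5 genes nearest to the members' median profile. URA3, MUP1, GCN4, MET4, TRX1, TRX2, TRP1 and the neighbouring genes were named after their values were seen. Planned motif searches of promoters were not run. The alternatives were 3 scalings, 3 treatments of the floor, 2 choices of probe sets and 2 thresholds. Python 3.11.15, matplotlib 3.10.9, scipy 1.17.1, pandas 2.3.3 and numpy 2.4.6 were used.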

Additional observations from a re-analysis of the deposited data

Results flagged for a closer look

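A total of 38 named genes were looked at for temperature differences of opposite sign in the strains, and 5 had them. Apart from the members and NRD1, these genes were picked by the size of their differences in these same data. The share of all genes with opposite signs was not counted, so 5 of 38 is no result about the genes as a set. Each strain has 1 array per temperature, so none of these differences was tested. MET14 was at -0.42 in nab3-11 and 0.31 in wild type, a difference of -0.73, and MET16 at 0.13 and -0.16, a difference of 0.29. STR2, a cystathionine gamma-synthase gene, was at -0.55 and 0.38, a difference of -0.92. GSH2, the glutathione synthetase gene, was at -0.63 and 0.17, a difference of -0.80. NRD1 was at 1.30 and -0.50, a difference of 1.80. With scaling to a common median the wild type values of MET14, STR2 and GSH2 were -0.20, -0.13 and -0.34, and the nab3-11 value of MET16 was -0.39, so that for these 4 genes the signs no longer opposed.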

How the results depend on the processing

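Of 474 values of single members under the alternatives, 464 moved by less than 1.5-fold, 10 moved by more, and none of the called ones changed direction. The 2 thresholds and the 2 choices of probe sets, with 48 values each, could not move these values. The values as deposited, 48 more, could hardly move them, as the trimmed means were already 150.1 to 150.2. The total therefore overstates stability. Values no longer measured were left out, so 38 counted with the floor at the 55th percentile and 45 each with median scaling and quantile normalization. A change of sign, all in values under 2-fold, occurred in 14. Between the strains at 37 °C, the number of members higher became 2 with the floor at the 25th percentile (SUL1 added), beside 5.35% of all genes. The number lower became 3 at a 1.5-fold threshold (14.0% of all genes) and 0 at 3-fold (0.608% of all genes). Without the wild type 37 °C array, nab3-11 at 37 °C was set against the mean of both 25 °C arrays. In this comparison, added after seeing the data and in which temperature differs too, 2 members were higher (SUL2, MET3) and 2 lower (MET6, SAM1). Of all genes, 15.9% were higher and 4.06% lower there. At 25 °C, 1 was higher at 1.5-fold (6.05% of all genes). In nab3-11 at 37 °C over 25 °C, 2 were higher with the lower floor (17.7% of all genes) and 2 at 1.5-fold (30.8% of all genes). In wild type, scaling to a common median gave 0 higher and 4 lower (4.25% and 8.27% of all genes), and 1.5-fold gave 4 lower (6.41% of all genes). At 3-fold 0 members were called either way in wild type, beside 3.14% of all genes higher and 0.301% lower. In the strain-by-temperature difference, 2 were higher with the lower floor (5.58% of all genes). There 1 was lower with quantile normalization (5.65% of all genes) and 4 at 1.5-fold (17.3% of all genes). The causes were not tested beyond what each alternative changes by construction. With scaling to a common median, 33.97% of called genes were higher in the wild type temperature difference, in place of 88.5%, and 32.2% in place of 79.5% in nab3-11. Averaging probe sets or keeping unsuffixed ones moved no member, as each has a single probe set. Signal near the floor limits SUL1, SUL2 and MET16. No paired analysis was possible because each group has 1 array.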

Other observations

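The genes next to SUL2 on its chromosome did not share its signal in nab3-11 at 37 °C. GEP5 lay below the floor on all 4 arrays, and NYV1, a vacuolar SNARE gene, had 32.0 there and 31.5 in wild type at the same temperature. Next to MET6, the tryptophan synthesis gene TRP2 had 184 at 37 °C and 358 at 25 °C in nab3-11 and 336 and 459 in wild type, the order of arrays that MET6 had. Its neighbour on the other side, IES5, had 42.2 and 26.1 in nab3-11 and 60.3 and 30.9 in wild type, higher at 37 °C in both strains. Next to SAM1, YLR179C had 1069 and 1070.2 in nab3-11 and 1123 and 1014 in wild type, with no such order, and VTA1 on the other side had 36.1 and 19.7 in nab3-11 and 28.6 and 15.9 in wild type. Of the strain marker genes, TRP1 had 129 and 39.7 in nab3-11 and 55.9 and 48.5 in wild type, at 37 °C and 25 °C in turn.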
